A study of Homo sapiens with 9 samples.

Results

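The proteasome genes of RT112 cells are described here across 9 RNA-seq libraries. They were taken by name: every entry of the expression table that begins with PSMA, PSMB, PSMC, PSMD, PSME, PSMF or PSMG followed by a digit, without the immunoproteasome subunits PSMB8 and PSMB9. Of 23278 genes in the table, 47 met the rule. One of them, PSMC3IP, encodes a protein of meiotic recombination and no part of the proteasome, which left 46 proteasome genes. A mean of at least 1 FPKM (fragments per kilobase of transcript, scaled to the size of the library) over the 9 libraries was required for testing, and 44 of the 46 passed. The remaining pair were PSMA8, the testis form of an alpha subunit, which was listed at 0 in every library, and PSMB11, the thymus form of a beta subunit, which was listed at 0 in 8 libraries and at 0.0226 FPKM in shNT replicate 3.

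RT112 is an established human bladder carcinoma cell line. Its cells were transduced with a control short hairpin RNA (shNT) or with 1 of 2 hairpins against STAG2 (sh1 and sh2), and each of the 3 groups had 3 libraries. STAG2 codes for part of cohesin, a ring-shaped complex that tethers sister chromatids and forms loops of chromatin. All 3 groups, per the labels' protocols, were grown with serum and then held in serum-free medium after transduction, a step meant to limit effects of the cell cycle, and every RNA sample received the same amount of ERCC spike-in RNA before stranded poly(A)+ libraries were made. The hairpins lower STAG2 in a pool of transduced cells of 1 line, and the labels do not say whether replicates were separate cultures, so p-values measure only the scatter among these 9 samples and may reflect technical repeats.

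The proteasome is the protease that degrades proteins tagged with ubiquitin. Its barrel, the 20S core, stacks outer rings of alpha subunits (PSMA genes), which gate the entry, on inner rings of beta subunits (PSMB genes), of which PSMB5, PSMB6 and PSMB7 carry the constitutive active sites. The 19S cap recognises and unfolds substrates with a ring of ATPases (PSMC genes) and a set of non-ATPase subunits (most PSMD genes). Dedicated chaperones assemble the core (PSMG genes) and the cap (PSMD5, PSMD9 and PSMD10), alternative activators (PSME genes) can replace the cap, and PSMF1 encodes an inhibitor. Cells adjust the transcription of most of these genes together, in large part through the transcription factor NFE2L1, which binds antioxidant response elements (AREs).

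Promoter windows are shown first, since the genes are known as a set under shared transcriptional control. RefSeq promoter sequences (build GRCh38.p14, from 250 bases before to 50 after the transcription start) were found for 40 of the 46 genes. The ARE core TGACNNNGC, searched on both strands, was present in 14 of the 40 (35%) and in 16.1% of all 27305 genes with a promoter. The ETS core CCGGAAG was present in 15 of the 40 (37.5%) and in 12.2% of all, and the CCAAT box in 19 of the 40 (47.5%) and in 39.7% of all. The palindrome of NRF1, a factor distinct from NFE2L1, was present in 1 of the 40 (2.5%), PSMA4, and in 1.52% of all. A match describes letters and is neither a binding site nor a cause of any level below. Windows are printed for genes on which the results turn, 5′ to 3′ on the strand given, with the motif in capitals.
PSMA4 (ARE core, chr15:78540651-78540677, + strand, centred at -122 from the start): tgggcacgaTGACTCTGCaccgcctcc
PSMD5 (ARE core, chr9:120843039-120843065, - strand, centred at -130): ggctacagtTGACACGGCcctaacgga
PSME1 (ARE core, chr14:24136099-24136125, + strand, centred at -82): tggcagggcTGACCCCGCctcctccat
PSME4 (ARE core, chr2:53971010-53971036, + strand, centred at -30): ctctgctggTGACGCTGCagccgccgg
PSMG1 (ARE core, chr21:39183617-39183643, - strand, centred at -179): cccagggcaTGACAGCGCgggcgggcg
PSMA6 (ETS core, chr14:35292371-35292395, + strand, centred at 1): gctggtaccCCGGAAGcagtcgctg
PSMG4 (ETS core, chr6:3258894-3258918, - strand, centred at -41): ctttcggccCCGGAAGggcgggggt
The ARE core was thus found before the RefSeq start of PSMA4 and not in the searched window of PSMA6 or PSMG4, which held the ETS core. PSMA6 held a second ETS core, centred at 20, and PSME4 held an ETS core, centred at -77, beside its ARE core. The RefSeq starts differ from the GENCODE 29 gene bounds given below. The PSMA4 and PSMA6 windows lie inside those gene bounds.

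STAG2 lay at 16.8 to 34.7 FPKM in the shNT libraries, at 3.76 to 5.34 in sh1 and at 3.41 to 4.93 in sh2, so every hairpin library was below every control library. Urothelial epithelial genes marked the cells as labelled, with 11 of 12 fixed markers at a mean of at least 1 FPKM, while 1 of 6 immune, 2 of 7 fibroblast and 0 of 5 endothelial markers reached it, and the collagen gene COL1A2 was at 0 throughout. The fibroblast sum, nearly all of it LUM, ranged from 206.5 to 414 FPKM in shNT, 152 to 290.1 in sh1 and 121 to 377 in sh2, and its part in the results was not tested. Summed FPKM was 516464 in shNT replicate 1 and 397792 to 434433 in the other 8 libraries. Longer transcripts were lower and shorter ones higher in shNT replicate 1 (Spearman's rho of -0.61 between deviation and length across genes, which are not independent, against -0.059 to 0.31 in the others). Proteasome transcripts are short, with a median of 1586 bases against 3378 for all tested genes, so values without this library are given beside the group results and beside single genes that move by over 1.5 times. The files hold no read counts, and the depth behind each value is unknown.

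The 44 expressed genes spanned a 17.8-fold range of mean level per transcript length, and subunits that stand in equal numbers in the finished particle did not have equal transcript levels. Among the 14 constitutive core subunits, the alpha subunit PSMA7 had the highest mean over the 9 libraries, 302 FPKM, and PSMA5 the lowest, 36.3 FPKM, an 8.31-fold spread. PSMB1 (236), PSMB4 (220), PSMA1 (182) and PSMB5 (151 FPKM) followed PSMA7, and each had a range that overlapped that of its neighbour in the order. The middle of the order ran from PSMA4 (134) through PSMA6, PSMB3, PSMA3, PSMA2 and PSMB7 to PSMB6 (85.8 FPKM). PSMB2 (44.7) and PSMA5 stood apart below: all 9 PSMB2 values were under all 9 PSMB6 values.

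In the 19S cap the spread was 4.0-fold over 17 subunits, from PSMD2, a large scaffold subunit, at 142 FPKM to PSMD6 at 35.6. Of the ATPases, PSMC1 was highest (123 FPKM) and PSMC4 lowest (37.2). PSMC3, another ATPase, had a mean of 98.2 FPKM, the ubiquitin receptor PSMD4 of 95.9, the lid subunit PSMD11 of 81.4, and PSMD14, the deubiquitinase that strips ubiquitin from substrates, of 73.1. Assembly chaperones lay lower, from 40.7 (PSMG1) to 18.0 FPKM (PSMG4) for the core and from 41.8 (PSMD10) to 17.0 (PSMD5) for the cap. PSME1, a subunit of the interferon-inducible activator, reached 122 FPKM, and the inhibitor PSMF1 26.8. Of the catalytic subunits, PSMB10, the inducible counterpart of PSMB7, had a mean of 25.2 FPKM beside 90.1 for PSMB7.

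**Figure D1:**
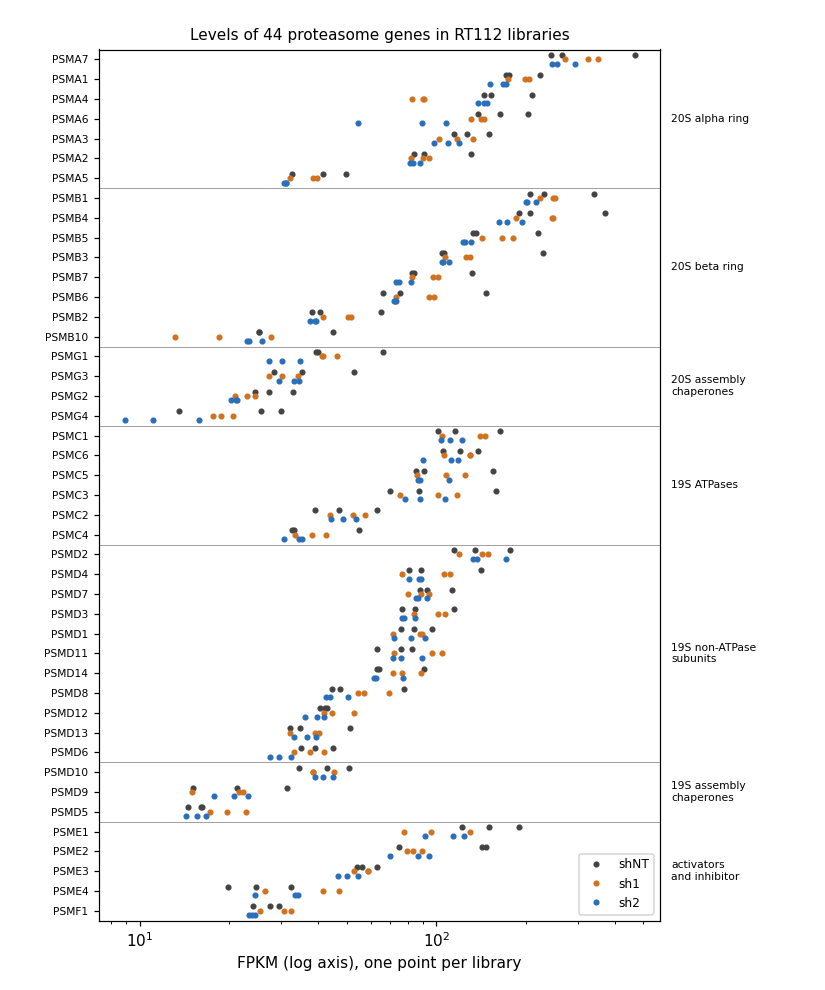
FPKM (log axis) of the 44 tested proteasome genes, 1 point per library, coloured by group and ordered by role. PSMA7 sits highest (mean 302 FPKM), PSMB2 and PSMA5 lie below the other constitutive core genes, and for 35 of 44 genes the highest point is shNT replicate 1. The highest library was not counted over all tested genes.

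Level differences between libraries were shared by most proteasome genes, and libraries of 1 group differed among themselves as well as from other groups. The genes' median deviation from their own means over the 9 libraries was 0.46 on the log2(FPKM + 1) scale in shNT replicate 1, -0.071 in shNT replicate 2 and -0.14 in shNT replicate 3. It was 0.15, 0.12 and -0.16 in sh1 replicates 1 to 3, and -0.066, -0.12 and -0.22 in sh2 replicates 1 to 3. In shNT replicate 1, 42 of the 44 genes were above their own mean, in sh1 replicate 2, 40 of 44, and in sh2 replicate 3 only 3 of 44. These counts were not made over all tested genes, so whether they are particular to the set was not tested. The control group thus held the highest library as well as 1 of the 3 lowest. With the length trend removed within each library, shNT replicate 1 dropped to 0.20 and sh1 replicate 1, at 0.18, was nearly as high. The proteasome genes' share of summed FPKM was 1.05%, 0.895% and 0.848% in shNT, 0.989%, 0.973% and 0.813% in sh1, and 0.899%, 0.857% and 0.796% in sh2. In each group replicate 1 had the largest share and replicate 3 the smallest, and within each replicate number sh2 had the smallest share.

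**Figure D2:**
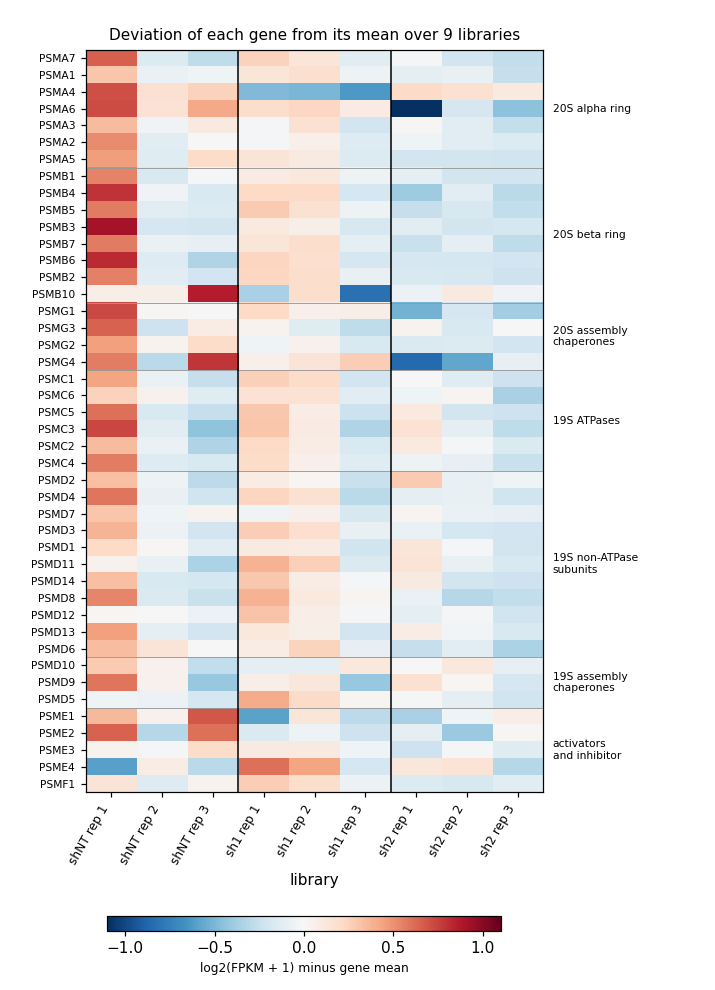
Deviation of each of the 44 genes (rows, by role) from its own mean over 9 libraries (columns), in log2(FPKM + 1). The column of shNT replicate 1 is above the mean in 42 of 44 genes, which was not counted over all tested genes. PSMA4 is below its mean in all 3 sh1 libraries and PSMA6 in all 3 sh2 libraries.

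Each gene was also set against the median deviation of the other 43 proteasome genes over the 9 libraries, as a description, since the points share library scale and length bias. Pearson's r had a median of 0.82 and exceeded 0.7 in 30 of 44 genes. Without shNT replicate 1 the median was 0.79 and 27 of 44 exceeded 0.7. Genes outside the set were not compared in this way. All 6 ATPases had r from 0.84 to 0.98, and 7 of 8 beta-ring genes exceeded 0.7. PSMB10, the exception in the beta ring, had r = -0.021. In the alpha ring PSMA4 (0.22) and PSMA6 (0.52) were below the other 5 genes, all above 0.7; without shNT replicate 1, 3 of 7 exceeded 0.7, PSMA3 had 0.61, PSMA5 0.55 and PSMA6 0.24, and PSMA4 turned to -0.56. The core chaperones exceeded 0.7 in 3 of 4 genes with that library and in 0 of 4 without it. None of the 5 activator and inhibitor genes exceeded 0.7: PSME1 had 0.044, PSME2 0.43 and PSME4 -0.061. Without shNT replicate 1, 2 of 5 did, among them PSMF1 with 0.78, and PSME1 and PSME2 had -0.43 and -0.21. PSME4, which encodes a large nuclear activator and has the longest transcript of the set (7099 bases), had r = 0.93 once shNT replicate 1 was left out.

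**Figure D3:**
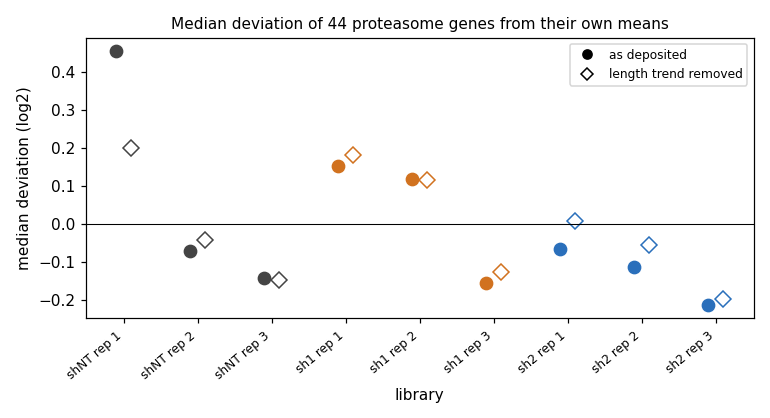
Median deviation (log2) of the 44 proteasome genes from their own means in each library, as deposited (filled circles) and with the length trend removed within the library (open diamonds). The highest value, 0.46 in shNT replicate 1, becomes 0.20 after removal; the lowest, -0.22, is in sh2 replicate 3.

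The first comparison asked how proteasome transcripts differed between sh1 and the control. PSMA4, an alpha-ring subunit, was the member with the largest difference: it measured 211, 145 and 153 FPKM in shNT replicates 1 to 3 and 91.2, 90.2 and 82.7 FPKM in sh1 replicates 1 to 3. All 3 sh1 libraries were below all 3 controls, and the sh1 libraries lay close together. The group means were 169.6 ± 36.1 and 88.0 ± 4.62 FPKM (SD, n = 3 each), and the log2 fold change was -0.92 ± 0.16 (SE). By limma the adjusted p was 0.0713 and missed the threshold of 0.05. With the replicate number as a block, since same-numbered libraries deviated together, limma gave an adjusted p of 0.0471 and the call passed. With the block 77 of all 11952 tested genes passed, against 20 without it. Over all alternatives the limma adjusted p of PSMA4 ran from 0.0277 to 0.338 while the log2 fold change stayed between -1.02 and -0.75. Within replicate numbers the sh1 minus shNT differences were -1.20, -0.68 and -0.88, so all 3 had the same direction.

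No proteasome gene passed in this comparison by limma without the block, in either direction, where 0.0167% of the 11952 tested genes passed as higher and 0.151% as lower. At an unadjusted p under 0.05 there were 2 higher genes, PSMD5 and PSME4 (background 6.67%), and 3 lower ones, PSMA4, PSMB10 and PSME1 (background 6.87%), shares of 4.55% and 6.82% that lie near the background. The ranges of the groups did not overlap for 1 higher gene, PSMD5 (background 8.7%), and 1 lower gene, PSMA4 (background 8.97%). PSMD5, an assembly chaperone of the 19S base, measured 16.2, 16.1 and 14.6 FPKM in shNT and 22.7, 19.6 and 17.2 in sh1, a log2 fold change of 0.32 ± 0.13 (limma adjusted p = 0.345). The values separated by a small margin between the highest control (16.2) and the lowest sh1 library (17.2).

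The set as a whole had a median near that of all genes: -0.050 against -0.0074 on the log2 scale, with 29 of 44 genes below 0 (51% of all tested genes) and 15 above (49%). This direction was not stable, since the median was 0.14 without shNT replicate 1, 0.041 without sh1 replicate 3 and 0.049 with the length trend removed, while the median of all genes stayed between -0.0047 and 0.0076. Spike-in scaling raised all genes, to a median of 0.081, and the set to 0.051, so relative to all genes the set was at -0.030 with it and -0.042 without. Within replicate numbers the median of the set was -0.35 for number 1, 0.22 for number 2 and -0.0044 for number 3. That of all tested genes was -0.038, 0.012 and -0.00068. In number 2, 42 of 44 genes were higher with sh1, and in number 1, 38 of 44 were lower, counts that were not made over all tested genes. By role, the medians were -0.15 in the alpha ring, -0.065 in the beta ring, -0.0034 in the ATPases and -0.042 in the other cap subunits; without shNT replicate 1 these became -0.0076, 0.19, 0.25 and 0.16.

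The second comparison set sh2 against the same 3 control libraries, so its values share those controls with the first. The largest difference was in PSMA6, another alpha-ring subunit, which measured 203, 138 and 165 FPKM in shNT and 54.5, 108 and 89.7 FPKM in sh2. All sh2 libraries were below all controls, but the sh2 libraries differed more among themselves than those of sh1. The means were 168.6 ± 33.0 and 84.1 ± 27.2 FPKM (SD, n = 3 each), and the log2 fold change was -1.03 ± 0.24 (limma adjusted p = 0.372). In sh1 the same gene measured 141, 145 and 131 FPKM, of which 2 lay inside the control range and 1 below it, with a log2 fold change of -0.26 ± 0.24 (limma adjusted p = 0.666), which was -0.12 without shNT replicate 1 and -0.40 without shNT replicate 2. PSMA6 has 4 named pseudogenes and shares exon sequence with 1 other coding locus on its strand in GENCODE 29, so how the authors assigned reads could affect its level; PSMA4 has neither.

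No proteasome gene passed in sh2 against shNT by limma, with or without the block, where the background was 0% for higher and 0.00837% for lower. At an unadjusted p under 0.05 no gene was higher (background 5.69%) and 6 were lower (background 6.97%): PSMA5, PSMA6, PSMD6, PSMG1, PSMG2 and PSMG4, or 13.6% of the set. The ranges did not overlap for 8 lower genes, or 18.2% (background 8.54%), namely PSMA1, PSMA5, PSMA6, PSMB5, PSMB7, PSMD6, PSMG1 and PSMG2, and for 0 higher genes (background 6.67%). These 8 are named because they were counted, not by the rule for named genes. Below 0 were 41 of 44 log2 fold changes (51.8% of all tested genes) and above 0 only 3 (48.2%), with a median of -0.22 against -0.012 for all. Relative to the median of all genes the set was at -0.20, and at -0.17 with spike-in scaling, which raised all genes to a median of 0.21 and the set to 0.036. Without shNT replicate 1 the median was -0.032, against -0.0063 for all genes, and 25 of 44 genes were below 0. With the length trend removed it was -0.088. Within replicate numbers 1 to 3 the medians were -0.54, -0.031 and -0.10, against -0.036, -0.00033 and -0.0060 for all tested genes.

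Among the catalytic genes, PSMB5, which encodes the chymotrypsin-like site, measured 221, 136 and 133 FPKM in shNT, 182, 167 and 143 in sh1, and 125, 131 and 123 in sh2. Its sh2 values lay just under the lower 2 controls, and its sh1 values lay inside the control range. PSMB7, the trypsin-like site, measured 132, 84.1 and 83.1 FPKM in shNT, 97.6, 102 and 82.5 in sh1, and 74.8, 82.5 and 73.0 in sh2. PSMB6, the caspase-like site, measured 147, 75.2 and 65.9 FPKM in shNT, 98.4, 94.7 and 73.0 in sh1, and 73.0, 72.7 and 71.9 in sh2. For all 3 genes the highest value of the 9 libraries was shNT replicate 1, and the log2 fold changes for sh2 were -0.33 ± 0.20, -0.34 ± 0.19 and -0.31 ± 0.27 for PSMB5, PSMB7 and PSMB6 (limma adjusted p = 0.475, 0.442 and 0.60). Without shNT replicate 1 they were -0.093, -0.12 and 0.042.

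The core-assembly chaperones had the lowest role median in sh2, -0.51, with 4 of 4 genes below 0 and none passing. PSMG4, which acts with PSMG3 in building the alpha ring, measured 25.5, 13.6 and 29.8 FPKM in shNT, 17.6, 18.7 and 20.6 in sh1, and 8.87, 11.05 and 15.9 in sh2. The groups overlapped through shNT replicate 2, which was below 1 sh2 library and all sh1 libraries, and the log2 fold change for sh2 was -0.86 ± 0.28 (limma adjusted p = 0.372). PSMG1, the partner of PSMG2 in a second alpha-ring chaperone, measured 65.9, 39.9 and 39.4 FPKM in shNT, 46.2, 41.2 and 41.3 in sh1, and 27.3, 34.6 and 30.1 in sh2. Every sh2 library was below every other library for PSMG1, and the log2 fold change against shNT was -0.61 ± 0.20 (limma adjusted p = 0.372) and -0.37 without shNT replicate 1. The role median of the same 4 genes in sh1 was -0.24. It was -0.072 without shNT replicate 1, with 3 of 4 genes below 0, and -0.11 with the length trend removed.

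By role, the sh2 medians of the core-assembly chaperones and the beta ring stayed below 0 without shNT replicate 1, and that of the ATPases did not. The chaperone median became -0.33, and that of the beta ring went from -0.33, with 8 of 8 genes below 0, to -0.086, with 6 of 8. The 6 ATPases, all below 0 with a median of -0.16, had a median of 0.074 without that library. The other cap subunits went from -0.099 (9 of 11 below 0) to 0.015, and the cap chaperones from -0.013 to 0.12. The alpha ring went from -0.25, with 7 of 7 genes below 0, to -0.087, and the activators and inhibitor from -0.20 to -0.22. With spike-in scaling the role medians, taken relative to the all-gene median of 0.21, ran from -0.47 in the core-assembly chaperones to 0.021 in the cap chaperones, beside -0.49 and -0.0013 in the deposited scale. Differences between roles were not tested.

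**Figure D4:**
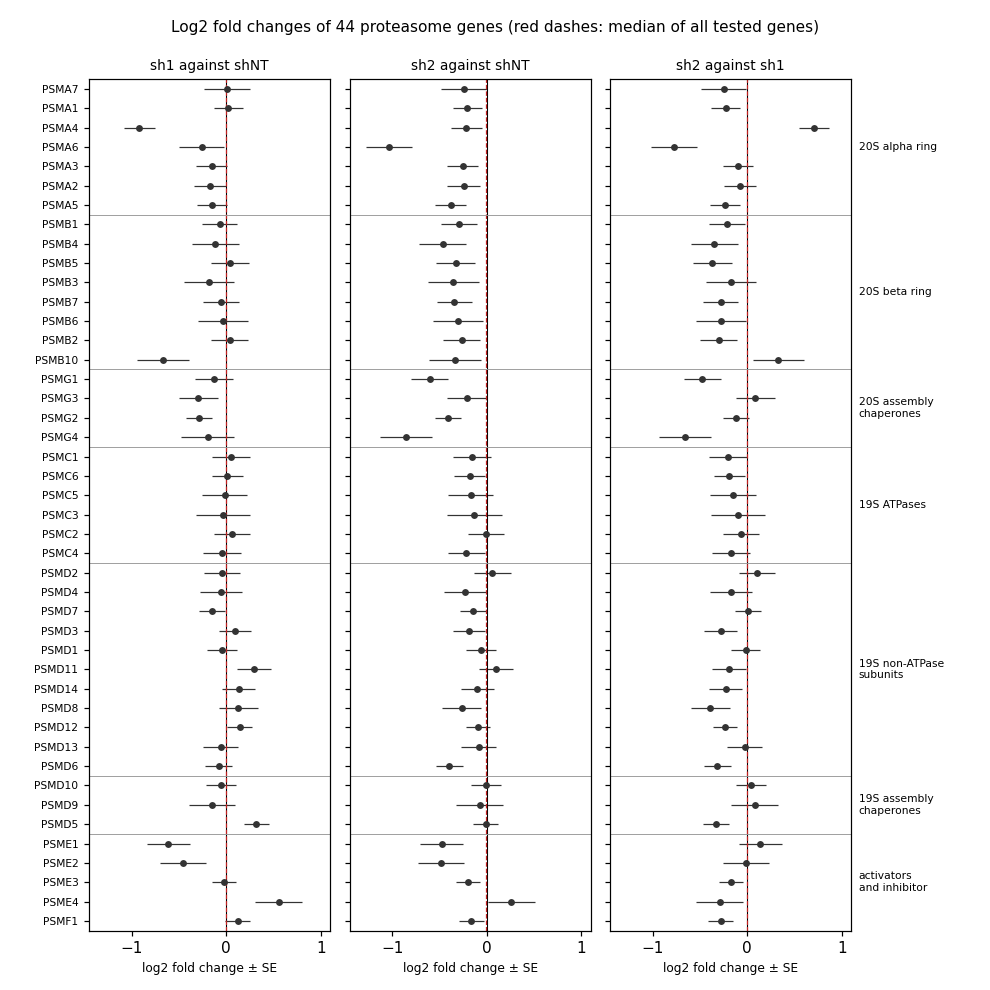
Log2 fold changes (± SE, limma) of the 44 proteasome genes, by role, for sh1 against shNT, sh2 against shNT and sh2 against sh1; red dashes mark the median of all tested genes. PSMA4 is lowest in sh1 (-0.92), and PSMA6 is lowest in sh2 (-1.03), followed by PSMG4 (-0.86). None of the genes passed the threshold. The median in the middle panel is -0.22 against -0.012 for all genes (0.036 against 0.21 with spike-in scaling, and -0.032 against -0.0063 without shNT replicate 1).

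With both hairpins set against shNT, no proteasome gene passed by limma (background 0% for higher and 0.00837% for lower). At an unadjusted p under 0.05, 5 genes were lower (background 6.35%), PSMA4, PSMA6, PSME1, PSME2 and PSMG2, and none was higher (background 6.23%). The ranges of the 6 hairpin and 3 control libraries did not overlap for any proteasome gene (background 2.28% for higher and 2.17% for lower). Log2 fold changes were below 0 in 37 of 44 genes (52.7% of all tested) and above 0 in 7 (47.3%), with a median of -0.12 against -0.017, and the median turned to 0.042 without shNT replicate 1, against -0.0035 for all genes. Relative to all genes it was -0.11, and -0.086 with spike-in scaling, where all genes had 0.14 and the set 0.052. Within replicate numbers 1 to 3 the medians were -0.45, 0.081 and -0.066, against -0.044, 0.0043 and -0.0058 for all tested genes.

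The lowest log2 fold changes over both hairpins were -0.65 ± 0.21 for PSMA6, -0.57 ± 0.14 for PSMA4 and -0.54 ± 0.20 for PSME1, with limma adjusted p of 0.328, 0.314 and 0.346. PSME1 and PSME2 encode the interferon-inducible PA28 activator, lie beside each other on chromosome 14, and are known to be induced with the immunoproteasome. PSME1 measured 151, 122 and 191 FPKM in shNT, 78.0, 129.5 and 96.3 in sh1, and 91.8, 114 and 124 in sh2. The hairpin libraries were mostly lower, but both groups reached above shNT replicate 2. PSME2, chosen after its values were seen, measured 147, 75.1 and 142 FPKM in shNT, 83.5, 89.6 and 79.7 in sh1, and 86.9, 70.0 and 94.4 in sh2, with shNT replicate 2 again among the hairpin values (log2 fold change over both -0.47 ± 0.21, limma adjusted p = 0.395, and -0.30 without shNT replicate 1 and -0.78 without shNT replicate 2). PSMB10, the inducible catalytic subunit, measured 25.3, 25.2 and 44.7 FPKM in shNT, 18.5, 27.6 and 13.2 in sh1, and 23.0, 25.8 and 23.4 in sh2, so that shNT replicate 3 set the control mean (log2 fold change over both -0.50 ± 0.24, limma adjusted p = 0.407, and -0.23 without that library).

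Of the immunoproteasome subunits left out by the rule, PSMB8 measured 46.3, 38.0 and 68.2 FPKM in shNT, 23.3, 39.2 and 27.7 in sh1, and 36.7, 39.8 and 47.4 in sh2. PSMB9 measured 16.2, 9.93 and 20.3 FPKM in shNT, 4.93, 10.2 and 8.87 in sh1, and 17.4, 11.4 and 18.6 in sh2. Both had their highest control value in shNT replicate 3 and their lowest in shNT replicate 2. Among the 44 proteasome genes shNT replicate 3 was the highest control in 4 and shNT replicate 1 in 39, including all 14 constitutive core genes. The highest control was not counted over all tested genes.

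At the upper end over both hairpins were PSME4 (0.41 ± 0.21), PSMD11 (0.19 ± 0.15) and PSMD5 (0.15 ± 0.12), with limma adjusted p of 0.430, 0.578 and 0.559. PSME4 measured 19.8, 32.5 and 24.6 FPKM in shNT, 47.1, 41.6 and 26.5 in sh1, and 33.4, 34.1 and 24.4 in sh2. Its lowest library was shNT replicate 1, where long transcripts were low in general, and its log2 fold change over both hairpins was 0.24 without that library and 0.26 with the length trend removed. PSMD11, a lid subunit, measured 82.9, 75.8 and 63.1 FPKM in shNT, 104.9, 96.9 and 71.9 in sh1, and 89.5, 75.8 and 71.6 in sh2, and the groups overlapped (0.085 without shNT replicate 3). The deubiquitinase PSMD14 (0.015), the receptor PSMD4 (-0.14), the ATPase PSMC3 (-0.083) and the inhibitor PSMF1 (-0.022) had log2 fold changes within 1 SE of 0. Their limma adjusted p ran from 0.741 to 0.968. Within replicate numbers 1 to 3 the differences were -0.13, 0.11 and 0.070 for PSMD14 and -0.52, 0.13 and -0.042 for PSMD4. For PSMC3 they were -0.50, 0.12 and 0.14, and for PSMF1 -0.085, 0.15 and -0.13. Number 1 includes shNT replicate 1. Without that library the role medians over both hairpins were 0.16 in the ATPases and 0.12 in the other cap subunits.

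**Figure D5:**
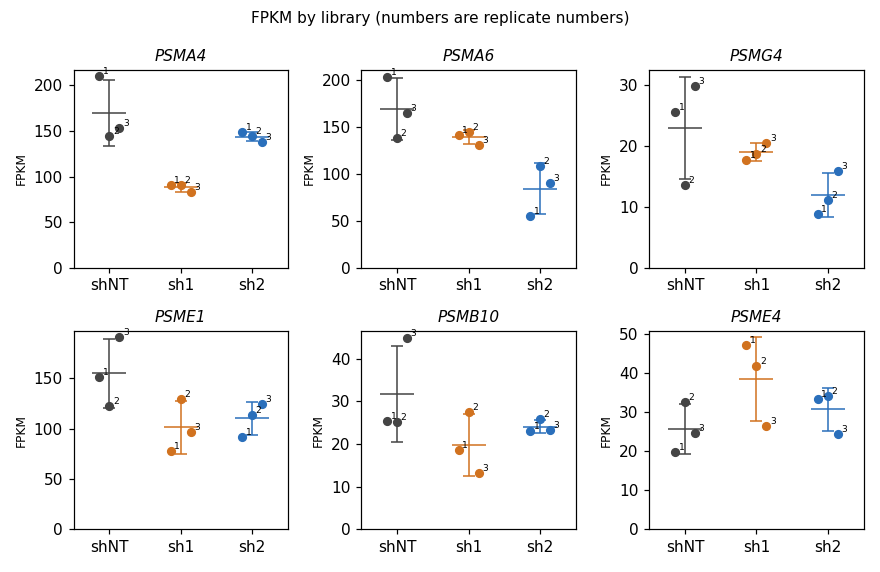
FPKM of 6 proteasome genes by group, with 1 point per library (numbered by replicate), the group mean (long bar) and SD. PSMA4 is low in all 3 sh1 libraries (82.7 to 91.2 FPKM) and PSMA6 in all 3 sh2 libraries (54.5 to 108 FPKM); the groups overlap in PSMG4, PSME1, PSMB10 and PSME4.

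The last comparison set the hairpins against each other, which uses no control library for the fold change. PSMA4 and PSMA6 had the largest differences and opposite directions: PSMA4 was higher with sh2 (144 ± 5.34 against 88.0 ± 4.62 FPKM, SD, n = 3 each; log2 difference 0.70 ± 0.16) and PSMA6 lower (84.1 ± 27.2 against 139 ± 7.10 FPKM; -0.77 ± 0.24). Their limma adjusted p were 0.118 and 0.218. PSMA4 differed by 0.70, 0.68 and 0.73 within replicate numbers 1 to 3, and PSMA6 by -1.36, -0.42 and -0.54. Without sh2 replicate 1 the PSMA6 difference was -0.49. PSMA4 passed when limma was fitted to the hairpin libraries alone (adjusted p = 0.0430), with quantile normalization (0.0345) and without shNT replicate 1 (0.0372), and over all alternatives its limma adjusted p ran from 0.0345 to 0.461. In those passing runs 92, 34 and 34 of all 11952 tested genes passed, in that order, against 26 in the unaltered fit. PSMG4 had the third largest difference, -0.66 ± 0.28 (limma adjusted p = 0.327).

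No proteasome gene passed in sh2 against sh1 by limma over all 9 libraries (background 0.142% for higher and 0.0753% for lower). At an unadjusted p under 0.05, PSMA4 was higher (background 7.09%) and PSMA6, PSMD5, PSMG1 and PSMG4 were lower (background 7%). The ranges did not overlap for 1 higher gene, PSMA4 (background 13.3%), and for 13 lower genes, or 29.5% (background 15.3%). Below 0 were 36 of 44 genes (51.1% of all tested) and above 0 were 8 (48.9%), with a median of -0.19 against -0.0072. The median was below 0 in every alternative run, from -0.30 to -0.040. Leaving out a control library, adding the block or fitting only the groups compared cannot change this median. Those runs, all at -0.19, therefore say nothing about its stability. The value nearest 0 came from spike-in scaling, where that of all genes was 0.12. Relative to all genes the set was then at -0.16, beside -0.19 in the deposited scale. Within replicate numbers 1 to 3 the median of the set was -0.24, -0.27 and -0.062, against -0.018, -0.0099 and 0.0026 for all tested genes. In the set 33, 42 and 30 of 44 genes were lower in sh2, counts that were not made over all tested genes. Role medians ran from -0.30 in the core-assembly chaperones and -0.28 in the beta ring to 0.040 in the cap chaperones.

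The heptamer AGCTTTA had been singled out earlier on these data among transcripts lower with sh1, so it was searched in the coding transcripts of GENCODE 29. It occurred in 0 of 13 PSMA4 transcripts and 0 of 9 PSMA6 transcripts. Over the set, 7 of 44 proteasome genes (15.9%) had a transcript that held it, against 25.3% of 10403 tested genes. These shares were not matched for transcript length, whose median was 1586 bases in the set and 3378 for all tested genes. PSMA4 lies at chr15:78540405-78552419 on the + strand and PSMA6 at chr14:35278633-35317493 on the + strand (GRCh38, GENCODE 29), and the values are of whole genes, so no exon or UTR can be singled out.

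Genes that work with the proteasome but carry other names were taken from lists chosen for their role. Of 12 tested partners, none passed by limma in any comparison; over both hairpins 6 were above and 6 below 0, with a median of -0.011. POMP, the chaperone that guides the last steps of core assembly, measured 107, 70.2 and 65.0 FPKM in shNT, 95.3, 90.1 and 72.2 in sh1, and 71.6, 67.7 and 60.4 in sh2 (log2 fold change over both -0.064 ± 0.17, limma adjusted p = 0.880, and 0.15 without shNT replicate 1). Its pattern over libraries was that of the core genes, with shNT replicate 1 highest. The ubiquitin receptor ADRM1 had -0.18 ± 0.23 (limma adjusted p = 0.719) and turned to 0.094 without shNT replicate 1. The range of the partners went from SHFM1, a small cap subunit, at -0.35 (limma adjusted p = 0.474) to UBE3C, a proteasome-bound ubiquitin ligase, at 0.41 (limma adjusted p = 0.342); without shNT replicate 1 they were at -0.061 and 0.24.

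Of 10 tested genes of the NFE2L1 axis none passed, 7 were above and 3 below 0 over both hairpins, and the median was 0.062. NFE2L1 itself measured 47.3, 51.9 and 51.4 FPKM in shNT, 59.8, 52.2 and 59.8 in sh1, and 56.1, 53.8 and 54.9 in sh2. Every hairpin library was above every control library for NFE2L1 (background 2.28%), by small margins, with a log2 fold change over both of 0.16 ± 0.10 (limma adjusted p = 0.506). NFE2L1 is regulated mainly as a protein, which these data do not measure. Its dimer partners gave both ends of the list, MAFF at -0.46 (limma adjusted p = 0.342) and MAFK at 0.47 (limma adjusted p = 0.358). Of 15 ubiquitin and delivery genes none passed, 7 were above and 8 below 0, and the median was -0.030. The ubiquitin-ribosomal fusion gene RPS27A was lowest at -0.48 (limma adjusted p = 0.380) and the ubiquitin-activating enzyme UBA6 highest at 0.34 (limma adjusted p = 0.406); RPS27A was at -0.72 without shNT replicate 2, and UBA6 at 0.15 without shNT replicate 1. In bulk RNA, fewer cells with a transcript and less of it per cell cannot be told apart.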

How the data were processed

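Gene-level FPKM values of 9 libraries were deposited by the authors in 1 table; per the submitters' processing notes they used hg19, and aligner, counter and annotation are not stated in the labels or the file. The table holds 23370 entries, 92 of them spike-ins. No value has exactly 3 decimals, so whole numbers were read as values that lost a decimal point: 10255 of 210330 were divided by 1000, of which 1329 had no other value of the gene as a reference. Among the tested proteasome values, 135 of 396 were divided, in 32 of 44 genes; PSMB4 and PSMB5 had all 9 divided, so their scale rests on the rule alone.

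Genes with a mean of at least 1 FPKM (11952) were tested on the log2(FPKM + 1) scale by limma 3.58.1 under R 4.3.3 (group means over 9 libraries, trended empirical Bayes, two-sided, Benjamini-Hochberg over all tested genes, threshold 0.05). Fold changes on this scale understate those of low genes. Ranges do not overlap where all values of 1 group exceed all of the other. Members and lists were chosen with earlier results of these data known. Named genes are those past the threshold, the 3 highest and 3 lowest over both hairpins, the 3 largest differences between hairpins, the highest per role, the catalytic and tissue-specific subunits, and PSMD14, PSMD4, PSMC3, PSMD11 and PSMF1; of partner lists, both extremes, POMP, ADRM1 and NFE2L1.

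Deviations from group means correlated between all same-numbered libraries (r from 0.118 to 0.491), so the numbers were taken as a possible pairing. A fit with the replicate number as a block was therefore run as an alternative. The p-values, SEs and background shares come from the fit without the block unless another fit is named. Between differently numbered libraries of different groups r ran from -0.629 to 0.205, so the 2 ranges overlapped. The highest was between shNT replicate 2 and sh2 replicate 1, and the labels do not state a pairing. Transcript lengths are those of the longest GENCODE 29 principal transcript, or of the gene's longest transcript where none was marked as principal. All 44 members and 89.7% of tested genes had a length. The length trend was removed by loess within each library. Other alternatives were a pseudocount of 0.1, no filter, quantile, median-of-ratios and spike-in scaling, only the groups compared, genes without a divided value, and each library left out. GENCODE 29 names a pseudogene for 12 of the 44 genes, 5 (PSMA6 and PSMB10 among them) share exon sequence with a coding locus on the same strand, and 11 (PSME1, PSME2, PSME4 and PSMG4 among them) face one on the other strand; the counting is not stated to use strand, so their levels are less certain.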

Additional observations from a re-analysis of the deposited data

How the results depend on the processing

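Counts of passing proteasome genes were 0 in all 4 comparisons and moved only for PSMA4. In sh1 against shNT the count was 1 with the replicate block, 1 with the block and the length trend removed, and 1 with quantile normalization, and each was PSMA4. Of all tested genes, 77 of 11952, 132 of 10721 and 29 of 11952 passed in these runs, against 20 of 11952 in the unaltered fit. In sh2 against sh1 the count of proteasome genes was 1 (PSMA4) with only the groups compared, 1 with quantile normalization and, in a setting chosen after seeing the data, 1 without shNT replicate 1 and with the length trend removed. There 92 of 11952, 34 of 11952 and 34 of 10721 of all tested genes passed, against 26 of 11952 in the unaltered fit. Leaving out 1 library at a time gave 0 to 1 proteasome genes in sh2 against sh1, with 1 only without shNT replicate 1, and 0 in the other comparisons. Without shNT replicate 1, 34 of all 11952 tested genes passed in sh2 against sh1. The block changed no other call among the proteasome genes.

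The median log2 fold change of sh2 against sh1 was -0.040 with spike-in scaling, where that of all genes was 0.12. Leaving out 1 library at a time, the medians ran from -0.17 to 0.14 (sh1), -0.32 to -0.032 (sh2), -0.25 to 0.042 (both) and -0.30 to -0.12 (sh2 against sh1). The positive values came without shNT replicate 1 and, for sh1, also without sh1 replicate 3 (0.041). Of single genes, PSMA4 in sh2 was 0.039 with spike-in scaling, where all genes had a median of 0.21. POMP over both hairpins was 0.087 with the length trend removed, with or without the block, 0.11 with spike-in scaling and 0.17 in the added setting, and ran from -0.20 to 0.15 with 1 library left out. In the added setting ADRM1 was 0.11 and PSMB6 in sh2 0.10; with 1 library left out they ran from -0.40 to 0.094 and from -0.53 to 0.042, and PSMG4 in sh1 ran from -0.52 to 0.019. The cause of these changes was not tested. Leaving out genes with a divided value left 12 members. Read depth is unknown, so no limit of detection can be given.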
